A study of Homo sapiens with 12 samples.

Results

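The thioredoxin system is a set of small redox enzymes that pass electrons from NADPH to oxidized proteins. The 9 genes described here are TXN, TXN2, TXNRD1, TXNRD2, SRXN1, GLRX, GLRX2, TXNIP and ARRDC4, of 28278 genes in the deposited count table. They were chosen by function, except that TXNIP was also selected on its measured values, because its 2 libraries of NAC-treated cells were uneven. The values of TXNIP in NAC-treated cells are therefore given as a description, with no test. All 9 genes passed the filter on low counts, as did 15916 genes in total.

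The data are RNA-seq of WA26, an established line of human embryonic stem cells (hESCs), with and without UBQLN1, a shuttle protein that carries ubiquitinated proteins to the proteasome. In the study, UBQLN1 was knocked out (KO) with CRISPR-Cas9 to ask how its loss bears on oxidative stress and telomeres, and KO cells were given either low oxygen or N-acetyl-L-cysteine (NAC), a cysteine precursor used as an antioxidant. The 4 groups were WT and KO cells in normal O2 without treatment, KO cells in 5% O2, and KO cells with NAC, each of 2 libraries of 31236968 to 41639350 counts. The 4 labelled samples of WT cells in 5% O2 or with NAC were not analysed here. The study worked with more than 1 clone of WT and of KO cells, and which clone gave each library is not stated in the labels. The study names DMSO as the vehicle of NAC, whereas the labels name no vehicle for untreated cells. For KO cells in 5% and 20% O2 the study calls the 2 libraries biological replicates, without saying whether they came from separate cultures. The p-values here rest on the spread between the 2 libraries of each group, pooled over all 4 groups in 1 fit. The uneven NAC libraries thus also enter comparisons without NAC.

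In cells, thioredoxin reduces disulfide bonds in its clients, such as peroxiredoxins and ribonucleotide reductase, and is itself restored by thioredoxin reductase, a selenoprotein that uses NADPH. The cytosol and the mitochondria each have their own thioredoxin and reductase, and the glutaredoxins do related work with glutathione as electron donor. TXNIP binds reduced thioredoxin and holds it inactive, and it also lowers glucose uptake; its relative ARRDC4 is an arrestin too, and transcription of both is driven by the glucose sensor MondoA (MLXIP) with its partner MLX.

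The targeted gene was low in all KO libraries. UBQLN1 stood at 221 and 197 CPM, counts per 1000000 TMM-scaled counts of tested genes, in the WT libraries, and at 42.3 and 43.5 CPM in the untreated KO libraries. It stood at 51.9 and 47.7 CPM in 5% O2 and at 62.4 and 49.3 CPM with NAC, so that the 6 KO libraries lay far below the WT libraries. KO against WT gave it a log2 fold change of -2.29 (SE 0.122, adjusted p = 2.52e-06, edgeR quasi-likelihood test with Benjamini-Hochberg adjustment over all tested genes, as for each adjusted p given here unless another tool is named). A gene is called where this adjusted p is under 0.05. By this rule UBQLN1 was higher with NAC than in untreated KO cells (log2 fold change 0.38, SE 0.118, adjusted p = 0.0196). It was not called once the trend described below was removed (0.20, adjusted p = 0.175).

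Levels of different genes were set beside each other as CPM per kb of transcript. TXN, the cytosolic thioredoxin, was the most abundant, with a median of 230.3 CPM per kb over the 8 libraries. TXNRD1, the cytosolic reductase, followed at 70.4 CPM per kb and TXN2, the mitochondrial thioredoxin, at 58.7 CPM per kb. These 2 genes overlapped in their ranges over the libraries. SRXN1, which repairs overoxidized peroxiredoxins, stood at 19.6 CPM per kb, and GLRX, the cytosolic glutaredoxin, at 19.4 CPM per kb, again with overlapping ranges. GLRX2, the mitochondrial glutaredoxin, stood at 7.85 CPM per kb. The least abundant were TXNIP, ARRDC4 and TXNRD2, the mitochondrial reductase, with medians of 1.11, 1.09 and 0.884 CPM per kb and ranges that overlapped. TXNRD2 had only 48 to 75 counts in a library.

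**Figure D1:**
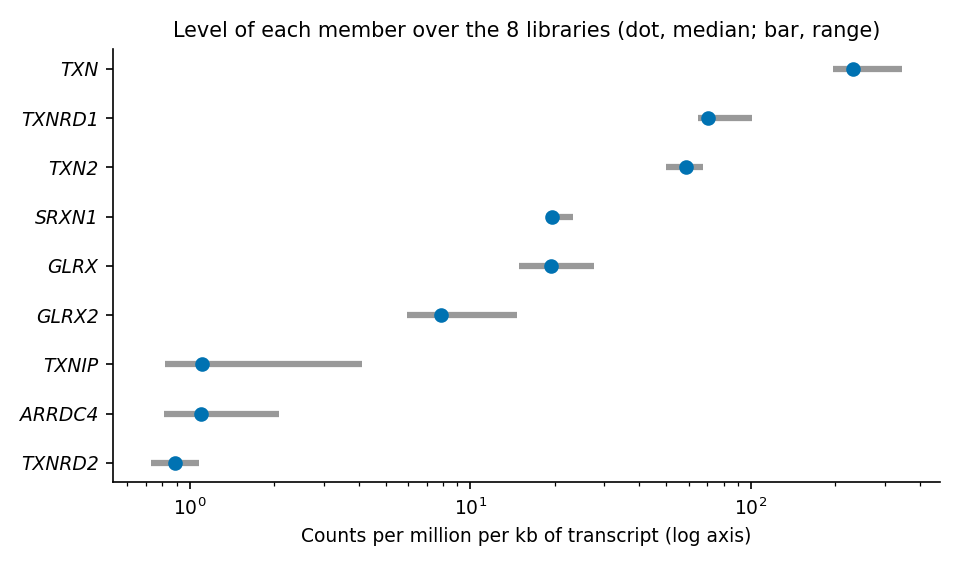
Level of each member in CPM per kb of transcript on a log axis, with the dot at the median and the bar from the lowest to the highest of the 8 libraries. TXN is highest at a median of 230.3, and TXNIP, ARRDC4 and TXNRD2 lie near 1 CPM per kb.

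TXN lies at chr9:110243810-110256507 (GRCh38, minus strand, 5 exons) and TXN2 at chr22:36467046-36481640 (minus strand, 4 exons). TXN stood at 159.5 and 151.5 CPM in WT, at 145 and 146 CPM in KO, at 180.0 and 187 CPM in KO at 5% O2, and at 234 and 255.1 CPM in KO with NAC. Its untreated KO libraries were the lowest and its NAC libraries the highest, with no overlap between KO and either treatment. How many of all tested genes separate in this way was not counted, for TXN or for the other members. TXN2 stood at 70.9 and 85.6 CPM in WT, at 66.4 and 67.7 CPM in KO, at 80.6 and 76.4 CPM in 5% O2, and at 90.1 and 84.4 CPM with NAC. The NAC libraries of TXN2 lay above the untreated KO libraries, while one of them lay below WT replicate 2. Part of the TXN and GLRX sequence occurs elsewhere in the genome: 20.7% of the 31-base words of the TXN transcript and 19.3% of those of GLRX were found at 2 or more sites, so their counts are uncertain, since reads matching several sites were left out by the counting.

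The reductases differ in their position and depth. TXNRD1 lies at chr12:104215779-104350307 (plus strand, 17 exons) and TXNRD2 at chr22:19875517-19941820 (minus strand, 18 exons). TXNRD1 is a classical target of NRF2, the factor that binds antioxidant response elements, and its promoters are shown because its call in NAC against KO held at the adjusted p threshold, in the same direction, in every refit. RefSeq lists 2 starts for TXNRD1, and 100 of the 250 bases before each are given below (GRCh38.p14, plus strand), with capitals for TGACNNNGC, the core of the antioxidant response element, searched on both strands.
TXNRD1 first start, chr12:104215629-104215728: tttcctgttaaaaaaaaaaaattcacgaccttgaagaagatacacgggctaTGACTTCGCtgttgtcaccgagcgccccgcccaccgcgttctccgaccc
TXNRD1 second start, chr12:104286882-104286981: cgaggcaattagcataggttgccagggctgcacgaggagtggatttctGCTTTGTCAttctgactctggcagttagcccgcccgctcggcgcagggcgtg
The match begins 99 bases before the first start on the plus strand, and 102 bases before the second start on the minus strand. These letters occur in 10.9% of the 35116 promoter windows of that length in RefSeq, and the window of SRXN1, also known as an NRF2 target, holds none. A match describes letters only, and binding was not measured.

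TXNRD1 stood at 291 and 250.1 CPM in WT, at 252 and 252 CPM in KO, at 270.0 and 273.5 CPM in 5% O2, and at 391 and 345 CPM with NAC. The NAC libraries were the highest of the 8. TXNRD2 stood between 1.41 and 2.10 CPM in all libraries, and its groups overlapped in KO against WT, in 5% O2 against KO and in NAC against KO. The 3 genes whose levels most resembled TXNRD1, by Pearson correlation of log2 CPM over the 8 libraries among 12372 genes of sufficient level, were RMND1 (r = 0.995), CDC40 (r = 0.994) and MICU2 (r = 0.991). These 8 points share groups and libraries, and TXN correlated with TXNRD1 at r = 0.89. With 1 library left out, 1 to 3 of the 3 stayed among the 3 most alike, and by Spearman correlation 0 stayed.

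SRXN1 (chr20:646615-653200, minus strand, 2 exons) stood at 47.02 to 49.99 CPM in 6 libraries and at 53.14 and 58.75 CPM with NAC. Another annotated gene on the same strand covers 90.7% of its exonic bases, and reads in that stretch could be lost or split if the counting annotation held both. GLRX (chr5:95751319-95822726, minus strand, 3 exons) stood at 19.0 and 22.6 CPM in WT, at 16.7 and 14.99 CPM in KO, at 17.1 and 13.9 CPM in 5% O2, and at 25.5 and 25.7 CPM with NAC. The NAC libraries of GLRX were its highest and the KO libraries lay below both WT libraries. GLRX2 (chr1:193090866-193106114, minus strand, 4 exons) stood at 5.19 and 5.99 CPM in WT, at 5.01 and 4.06 CPM in KO, at 5.52 and 4.67 CPM in 5% O2, and at 10.1 and 7.42 CPM with NAC. Here too the NAC libraries were above the other 6.

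TXNIP (chr1:145992435-145996579, minus strand, 8 exons) and ARRDC4 (chr15:97960703-97973833, plus strand, 8 exons) are shown with the bases before their starts as the 2 members driven by MondoA. The TXNIP stretch carries, in capitals, 2 copies of CACGNG spaced by 5 bases, E-box-like motifs in the arrangement of a carbohydrate response element (the 5 spacer bases are in capitals too). The ARRDC4 window holds no such pair, and its stretch carries ACGTG, the core letters of a hypoxia response element in its A form, which overlap on the 2 strands as a palindromic E box. Both strands of the 250 bases before each RefSeq start were searched (GRCh38.p14).
TXNIP, chr1:145996600-145996699 (minus strand): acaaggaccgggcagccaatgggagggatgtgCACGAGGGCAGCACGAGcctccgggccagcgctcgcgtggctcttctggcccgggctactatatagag
ARRDC4, chr15:97960453-97960552 (plus strand): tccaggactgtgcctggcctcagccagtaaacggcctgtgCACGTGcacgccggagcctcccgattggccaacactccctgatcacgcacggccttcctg
The TXNIP match begins 88 bases before the first of its 2 RefSeq starts, and the window of the second holds ACGTG and not the paired motif. In total 16 of the 35116 windows (0.0456%) hold the paired motif. ACGTG is common, in 18.5% of windows, and the same 2-strand palindrome occurs before 1 of the 3 starts of GLRX2. In ARRDC4 it begins 210 bases before the start on the minus strand and 209 bases before it on the plus strand. The matching letters are a description and show neither binding nor a cause of the levels.

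TXNIP stood at 2.94 and 2.52 CPM in WT (98 and 97 counts) and at 3.50 and 2.67 CPM in KO (129 and 110 counts). In KO at 5% O2 it stood at 9.59 and 6.20 CPM (391 and 199 counts). With NAC it stood at 11.9 CPM in replicate 1 (458 counts) and at 2.37 CPM in replicate 2 (71 counts). The NAC libraries thus held both the highest and the lowest value of the 8, a 5.04-fold gap, whereas the replicates of the other groups differed by at most 1.55-fold. ARRDC4 stood at 4.29 and 3.63 CPM in WT, at 4.12 and 3.28 CPM in KO, at 6.48 and 6.86 CPM in 5% O2, and at 8.43 and 4.61 CPM with NAC. It was again highest in NAC replicate 1, while NAC replicate 2 lay above the untreated KO libraries.

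**Figure D2:**
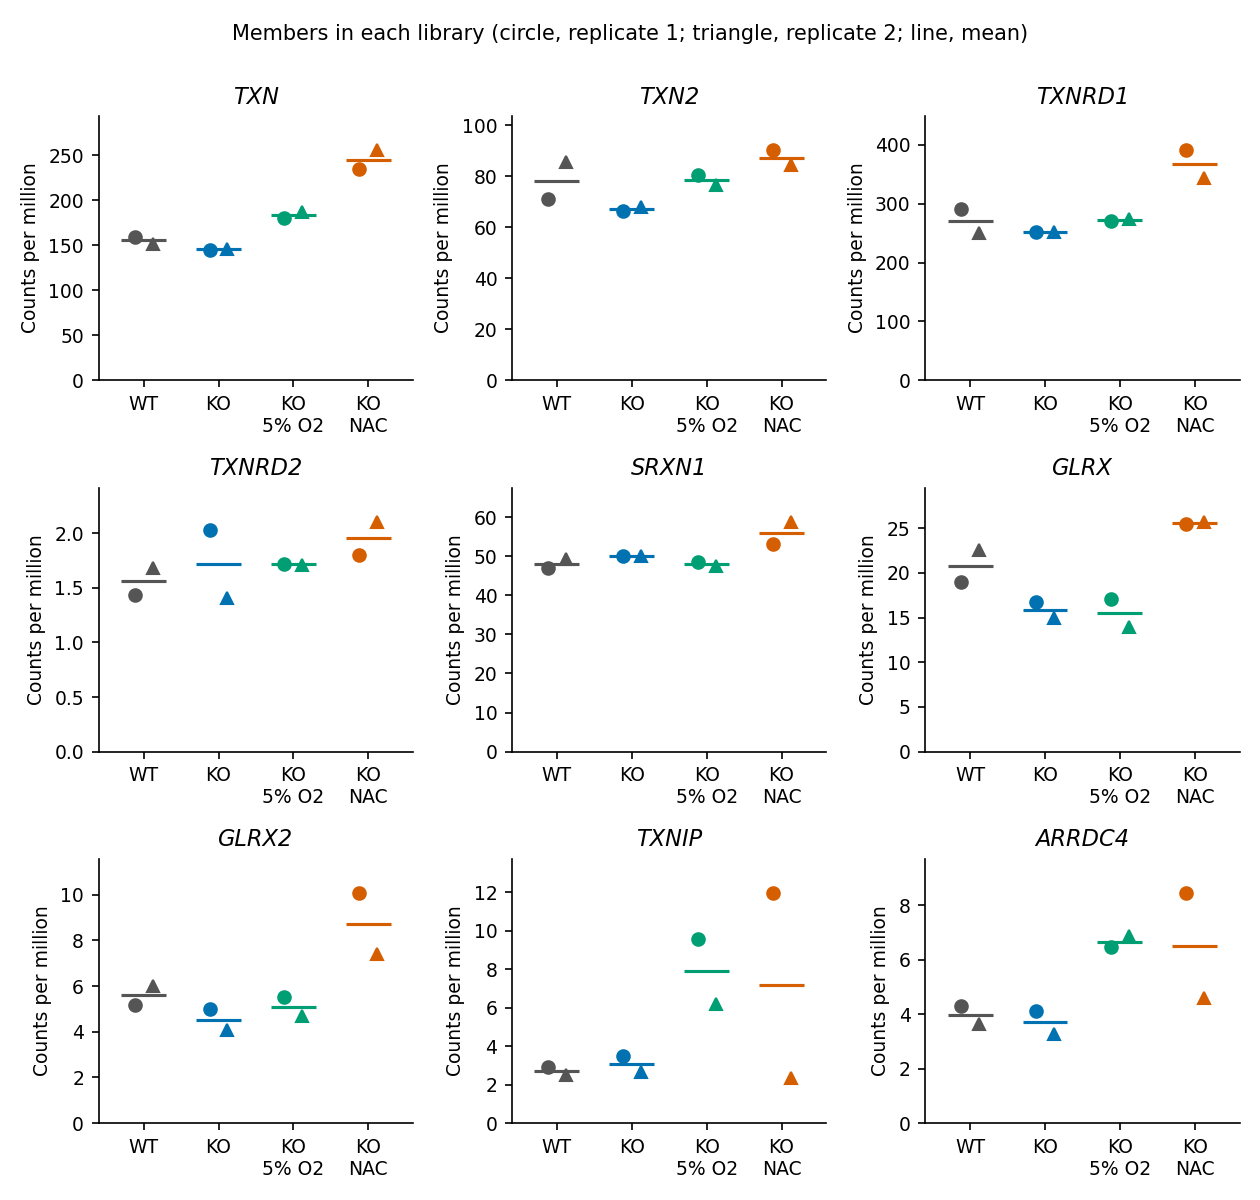
CPM of each member in each library on linear axes from 0, by group, with circles for replicate 1, triangles for replicate 2 and lines for the mean of 2. TXN, TXNRD1, SRXN1, GLRX and GLRX2 are highest in the 2 NAC libraries, and TXNIP splits there between 11.9 and 2.37 CPM. Of all tested genes 23.8% were called higher in NAC against KO. With the trend described below removed, TXN and GLRX had log2 fold changes of -0.36 and -0.08 in that comparison.

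The 5 genes whose levels were most like those of TXNIP over the 8 libraries, by the same measure, were TAGLN (r = 0.973), MXI1 (r = 0.943), DNAJC2 (r = 0.942), ZNF160 (r = 0.941) and ALAS1 (r = 0.937). TAGLN, an actin-binding protein of smooth muscle and mesenchymal cells, stood at 19.4 to 22.2 CPM in WT and untreated KO, at 35.0 and 30.9 CPM in 5% O2, and at 37.0 and 21.4 CPM with NAC. ARRDC4 correlated with TXNIP at r = 0.915. That value and the ranking of the 5 genes both include the NAC libraries on which TXNIP was selected. With 1 library left out, 0 to 3 of the 5 genes stayed among the 5 most alike, 0 of them without either NAC library, and by Spearman correlation 0 stayed.

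Other cell types were looked for because the NAC libraries differed. All 12 pluripotency markers had counts in every library and summed to 6812 to 8171 CPM. By CPM, not scaled by transcript length, DNMT3B was highest in 7 libraries (1418 to 2617 CPM). LIN28A was highest in NAC replicate 1 (1878 CPM, against 1136 CPM for DNMT3B). Per kb, DPPA4 stood above DNMT3B with NAC (group means of 395.8 and 294.6 CPM per kb). The 13 mesenchymal markers summed to 1079 CPM in NAC replicate 1, against 578 CPM in NAC replicate 2 and 538.5 to 669 CPM in the other 6 libraries, with THY1 the most abundant throughout at 332 to 476 CPM. In NAC replicate 1 all 13 had counts, and in the other libraries 3 to 5 were at 0. DCN, a proteoglycan of connective tissue, had 1809 counts (47.2 CPM) in NAC replicate 1 and 0 in each of the other 7 libraries, as had LUM (148 counts) and PRRX1 (403 counts). COL3A1 had 1114 counts there, 8 in WT replicate 2 and 0 elsewhere. COL6A3 stood at 103.5 CPM in NAC replicate 1 and at 0.81 to 2.23 CPM elsewhere. These 5 genes, picked after their values were seen, summed to 194 CPM in NAC replicate 1 and to 1.04 CPM in NAC replicate 2. Not all of the list moved this way: COL5A1 was at its lowest in NAC replicate 1 (17.64 CPM, against 27.99 CPM in NAC replicate 2), and THY1 differed by 1.19-fold between the 2 NAC libraries. NAC replicate 1, with the highest TXNIP and ARRDC4, thus also had the highest sum of these 5 genes, and their part in the TXNIP and ARRDC4 levels was not tested. In 5% O2, TXNIP and ARRDC4 lay above the untreated KO libraries and the same 5 genes summed to 1.25 and 0.81 CPM. Their relation was not tested there either. In bulk RNA, a change in the number of cells of a type and a change in RNA per cell cannot be told apart.

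**Figure D3:**
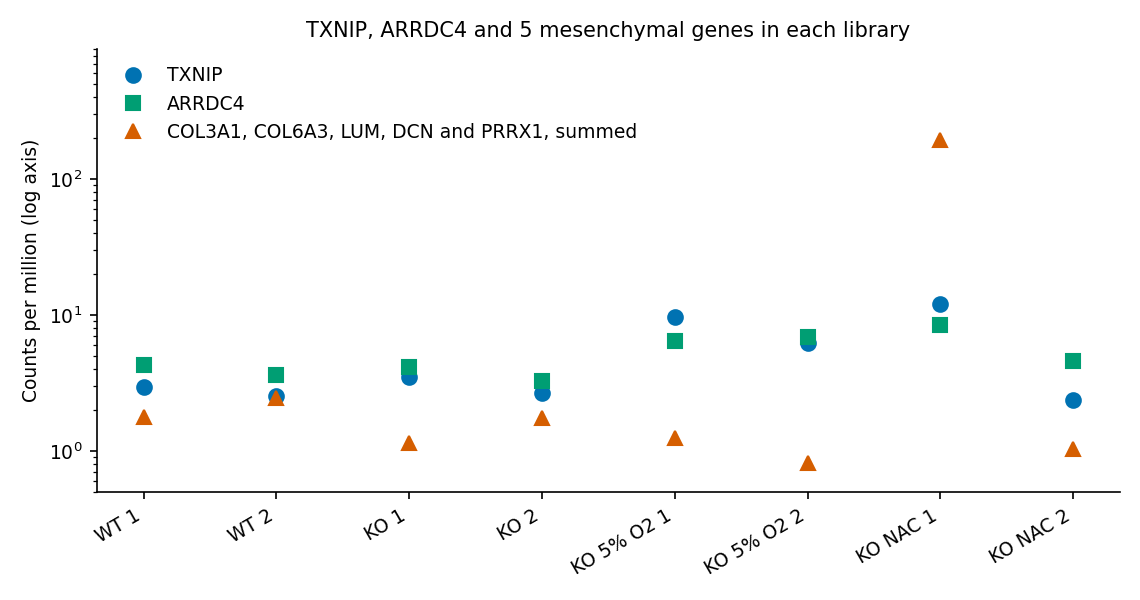
CPM on a log axis of TXNIP, ARRDC4 and the sum of 5 mesenchymal genes in each of the 8 libraries. The mesenchymal sum reaches 194 CPM in NAC replicate 1 and is at most 2.44 CPM elsewhere. TXNIP is high in NAC replicate 1 and in both 5% O2 libraries.

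The sums of the other marker lists varied less between the NAC libraries, but some single genes in them did not. In NAC replicates 1 and 2, SOX1 stood at 2.87 and 7.85 CPM and DCX at 2.90 and 6.41 CPM. GATA2 stood at 1.12 and 0.468 CPM, and EMX2 had 17 and 0 counts. TUBB3 differed by 1.07-fold. The 8 neural markers summed to 660.1 and 707 CPM with NAC and to 855.5 to 1134 CPM elsewhere, with TUBB3 the most abundant at 528 to 694 CPM. The 12 mesendoderm markers summed to 59.4 to 127.5 CPM, led by KDR at 48.9 to 121 CPM. The 11 trophoblast and amnion markers summed to 11.9 to 17.4 CPM, led by KRT7 at 9.397 to 11.2 CPM.

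KO cells were set against WT cells in normal O2. None of the 9 members was called by edgeR in KO against WT, where 1.34% of all tested genes were called higher and 0.622% lower. These were 213 and 99 genes, and 92 and 97 once the trend described below was removed. Only GLRX, 1 member, had an unadjusted p under 0.05, and DESeq2 called 0 members. The log2 fold change of GLRX was -0.39 (SE 0.143, adjusted p = 0.185 from edgeR). The fold changes of the members ranged from -0.39 for GLRX to 0.18 for TXNIP on the log2 scale. Of 19 tested NRF2 targets 1 was called, NQO1, a quinone reductase, which rose from 55.2 and 54.6 CPM in WT to 88.0 and 95.0 CPM in KO (log2 fold change 0.74, SE 0.106, and 0.81 with the trend removed; adjusted p = 0.0044, and up to 0.0798 without either WT library or KO replicate 2). Among the marker lists, NES rose (log2 fold change 0.83, SE 0.13, and 0.67 with the trend removed; adjusted p = 0.00769, and up to 0.152 without WT replicate 2 or either KO library) and KDR fell (log2 fold change -0.80, SE 0.0968, adjusted p = 0.00118, and -0.88 with the trend removed). None of the 19 related thioredoxin genes, the 12 thioredoxin clients or the 16 other selenoproteins was called by edgeR, with medians of -0.08, -0.21 and -0.20 against 0.00 for all genes. At an unadjusted p under 0.05 these lists had 3, 4 and 8 genes, where 2804 of the 15916 tested genes did (17.6%). DESeq2 called 0, 2 and 2 genes of these lists and 841 genes in total. It also called 2 of the 19 NRF2 targets, 1 higher and 1 lower, and 1 of the 6 tested arrestin and Mondo genes, higher. Without NAC replicate 1 edgeR called 3 of the 12 clients lower, and 1 of the 16 selenoproteins higher and 3 lower, where 826 of 16422 tested genes were called higher and 485 lower.

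A trend over all genes bears on these comparisons. Across the 14828 tested genes with known transcript length and GC content, which are not independent replicates, the fold change of KO with NAC against KO correlated with GC content at a Spearman rho of -0.50 and with length at -0.257. In KO at 5% O2 against KO the values were -0.336 and -0.253, and in KO against WT they had the other sign, 0.147 and 0.233. There TXN went from -0.10 to 0.20 with the trend removed, without a call in either fit. TXN is short and poor in GC (737 bases, 36.8% GC): only 3.64% of tested genes are shorter and 4.42% have less GC. GLRX and GLRX2 are short as well, at 932 and 682 bases. The fit was therefore repeated with each library's smooth trend on length and GC content removed, and values from that fit are given beside the calls.

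Low oxygen gave 1 call among the 9 members, TXN, which was higher in 5% O2 with a log2 fold change of 0.34 (SE 0.0831, adjusted p = 0.0337) but -0.11 with the trend removed (adjusted p = 0.607). Of all tested genes 3.68% were called higher and 4.13% lower, and with the trend removed 1.63% and 0.339%, with no member called by edgeR. The TXN call was also lost without any 1 of the 6 WT, KO or 5% O2 libraries (adjusted p = 0.0506 to 0.239), while its log2 fold change stayed at 0.31 to 0.36. TXNIP had the largest fold change of the members, 1.36 on the log2 scale (SE 0.528, adjusted p = 0.135), and ARRDC4 the next, 0.85 (SE 0.275, adjusted p = 0.0795), and neither passed the test. In both genes the 2 libraries in 5% O2 lay above the 2 untreated KO libraries. The same held for TXN, TXN2 and TXNRD1, while SRXN1 lay below, and the share of all genes that separate so was not counted. The test shares its estimate of the spread with the NAC libraries, where TXNIP was selected for being uneven. Without NAC replicate 1, TXNIP (adjusted p = 0.00305) and ARRDC4 (adjusted p = 0.012) were called along with TXN, 3 of 9 members, beside 8.04% of genes called higher. Without NAC replicate 2 the adjusted p-values were 0.00217 and 0.0103. When only the 4 libraries compared were fitted, TXN, TXNIP and ARRDC4 were again called, with an adjusted p of 0.0029 for TXNIP, beside 9.53% of genes called higher.

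The related genes in 5% O2 were mostly without a call by edgeR. Of all tested genes 3.68% were called higher and 4.13% lower, and with the trend removed 1.63% and 0.339%. Of 12 thioredoxin clients 5 rose (median log2 fold change 0.31), among them the peroxiredoxins PRDX1 (0.46, SE 0.0893, adjusted p = 0.0151) and PRDX4 (0.50, SE 0.106, adjusted p = 0.0209), but none of the 12 was called by edgeR with the trend removed (0.23 and adjusted p = 0.142 for PRDX1, 0.34 and adjusted p = 0.0544 for PRDX4). Of 19 related genes 2 rose, the transmembrane oxidoreductases TMX1 and TMX2 at 0.34 and 0.36 on the log2 scale. Of 16 other selenoproteins 3 rose and 1 fell, and neither list had an edgeR call once the trend was removed. DESeq2 called 6 of the 19 related genes, 6 of the 12 clients and 6 of the 16 selenoproteins, and 2097 genes in total. Of 7 tested genes of selenoprotein synthesis 1 rose, SEPHS1 (0.29, SE 0.0699, adjusted p = 0.0325), but it was not called with the trend removed (0.26, adjusted p = 0.0553). Of 19 NRF2 targets 0 were called by edgeR, 3 had an unadjusted p under 0.05 and 2 were called by DESeq2. Of all 15916 tested genes 3941 (24.8%) had an unadjusted p under 0.05 and 2097 were called by DESeq2. Of the 6 tested arrestin and Mondo genes, ARRDC2 rose (1.16, SE 0.276, adjusted p = 0.0307, and 1.31 with the trend removed, adjusted p = 0.0396). MLXIP, which encodes MondoA, fell by 0.51 on the log2 scale (SE 0.109, adjusted p = 0.021), a call that the trend removal ended (adjusted p = 0.518). For comparison the median of all genes was 0.00. Among the cell type markers, ZFP42 (0.33, SE 0.0871, adjusted p = 0.0401) and CXCR4 (1.59, SE 0.352, adjusted p = 0.0237) rose and NES (-0.81, SE 0.129, adjusted p = 0.00812) and KDR (-0.40, SE 0.0974, adjusted p = 0.0327) fell. With the trend removed these 4 stood at 0.21, 1.43, -0.50 and -0.28, and none of them was called by edgeR. Each call named here for 5% O2 was lost without KO replicate 1, KO replicate 2 or the first 5% O2 library, as were some without others, with adjusted p-values of up to 0.352.

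With NAC, 6 of the 8 members that could be tested were called higher than in untreated KO cells, TXN (lower with the trend removed), TXN2, TXNRD1, GLRX (-0.08 with the trend removed), GLRX2 and ARRDC4. Of all tested genes 23.8% were called higher and 20.8% lower. With the trend removed 2 members were called higher and 1 lower, where 14.6% and 10.7% of all genes were. TXNRD1 was higher by 0.55 on the log2 scale (SE 0.0954, adjusted p = 0.000667), and by 0.39 with the trend removed (adjusted p = 0.0057). TXN2 was higher by 0.38 (SE 0.104, adjusted p = 0.0109), and by 0.34 with the trend removed (adjusted p = 0.0122). TXN turned from 0.75 (SE 0.0834, adjusted p = 3.82e-05) to -0.36 with the trend removed (adjusted p = 0.0192), so its direction depends on this choice. GLRX went from 0.69 (SE 0.143, adjusted p = 0.00205) to -0.08 (adjusted p = 0.683) in the same way, and GLRX2 from 0.95 (SE 0.22, adjusted p = 0.00415) to 0.25 (adjusted p = 0.412). The cytosolic reductase and the mitochondrial thioredoxin were thus called higher in both fits, and the cytosolic thioredoxin and both glutaredoxins in 1. The other members, TXNRD2 and SRXN1, had log2 fold changes of 0.18 (SE 0.327, adjusted p = 0.689) and 0.16 (SE 0.0935, adjusted p = 0.186).

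ARRDC4 was higher with NAC by 0.82 (SE 0.275, adjusted p = 0.0289), but by 0.32 without NAC replicate 1 (adjusted p = 0.344), and 0.67 with the trend removed (adjusted p = 0.0924). Its call was also lost without WT replicate 2, either KO library or either 5% O2 library, with adjusted p-values of 0.0528 to 0.191 in those 5 fits. Without NAC replicate 1, 5 of 8 members were called higher, where 21.2% of 16422 tested genes were called higher and 19.7% lower. The call of TXN2 was lost without KO replicate 1 (adjusted p = 0.0789) or KO replicate 2 (adjusted p = 0.0611), and that of GLRX2 without KO replicate 2 (adjusted p = 0.0553). TXN, TXNRD1 and GLRX were called with any 1 library left out. For TXNIP the fold change was 1.23 on the log2 scale with both NAC libraries, 1.96 with replicate 1 alone and -0.38 with replicate 2 alone, and it was not tested.

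**Figure D4:**
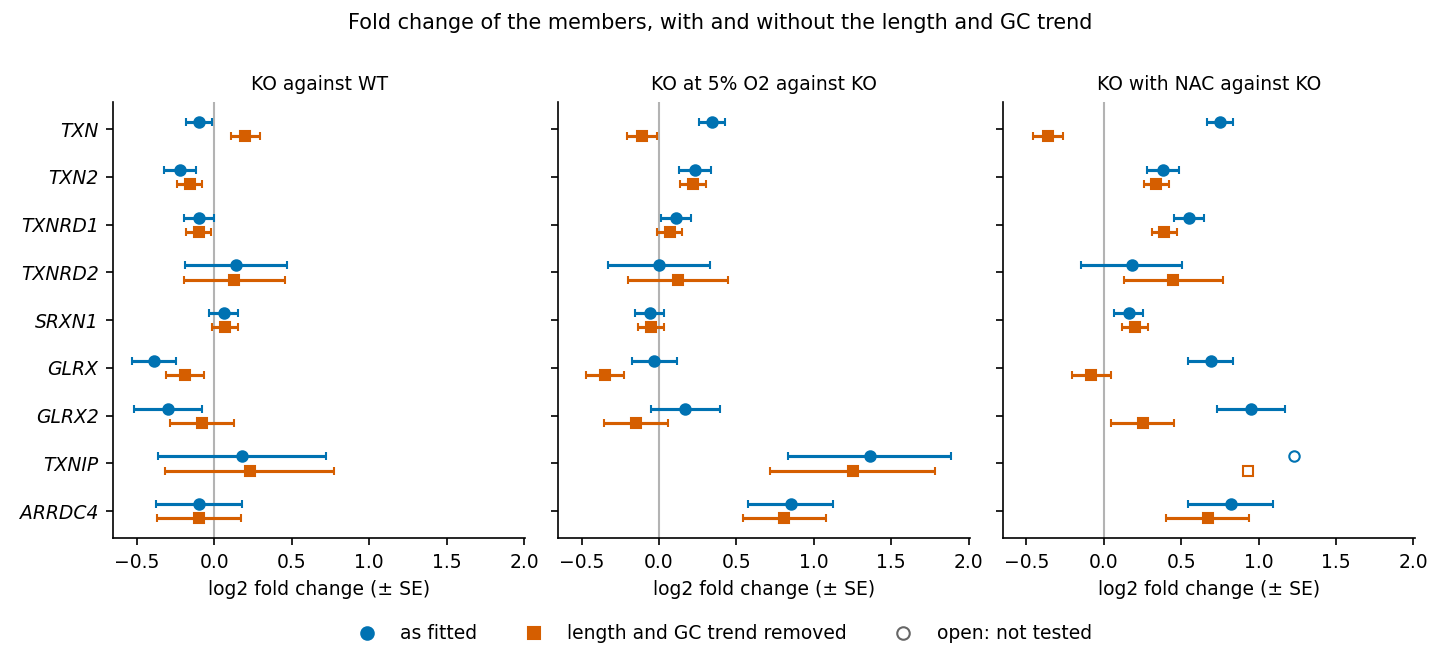
Log2 fold change of each member with its SE in 3 comparisons, as fitted (circles) and after removal of the length and GC trend (squares). TXN with NAC moves from 0.75 to -0.36, TXNRD1 only from 0.55 to 0.39, and the open symbols of TXNIP carry no test.

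The lists of genes around the members were counted in the same fit. Of 19 related thioredoxin genes 14 rose with NAC and 1 fell (median log2 fold change 0.56, against 0.02 for all genes). With the trend removed 4 rose and 1 fell (median 0.20, against 0.03). Of all tested genes 23.8% were called higher and 20.8% lower, and 14.6% and 10.7% with the trend removed. TXNL1, a thioredoxin-like protein bound to the proteasome, rose by 0.82 (SE 0.0866, adjusted p = 3.02e-05), and by 0.59 with the trend removed (adjusted p = 0.000685). TXNDC9 rose by 1.22 (SE 0.127, adjusted p = 2.89e-05), a call that was lost with the trend removed (adjusted p = 0.169). NXN, a thioredoxin-like protein, fell by 0.49 (SE 0.0969, adjusted p = 0.0016), again not called with the trend removed (adjusted p = 0.524). Of 12 thioredoxin clients 8 rose (median 0.56), and 5 rose with the trend removed (median 0.26). PRDX3, the mitochondrial peroxiredoxin, stood at 233 and 239 CPM in KO and at 535 and 553.5 CPM with NAC, a log2 fold change of 1.20 (SE 0.0857, adjusted p = 1.28e-05) that was 0.44 with the trend removed (adjusted p = 0.0019). PRDX4, the peroxiredoxin of the endoplasmic reticulum, rose by 1.14 (SE 0.107, adjusted p = 1.94e-05), and by 0.80 with the trend removed (adjusted p = 0.00019). Of the 31-base words of TXNL1, TXNDC9, PRDX1 and PRDX3, 10.6%, 16.3%, 10.9% and 12.8% occur at 2 or more sites. Such words make up 43.8%, 45.3% and 36.0% for SELENOT, SEPHS1 and TMX2. Among named cell type markers they make up 63.4% for TDGF1, 36.6% for LIN28A, 21.0% for TUBB3, 18.0% for ZFP42 and 11.1% for DPPA4.

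Thioredoxin reductases are selenoproteins, and other selenoproteins were counted beside them. Of 16 of these, 10 rose with NAC and 1 fell (median 0.47), and with the trend removed 8 rose and 1 fell (median 0.32). Beside this list, the selenoprotein synthesis genes and the NRF2 targets below, 23.8% of all tested genes were called higher and 20.8% lower. With the trend removed these shares were 14.6% and 10.7%. SELENOT rose from 62.8 and 63.0 CPM in KO to 129.6 and 153 CPM with NAC (log2 fold change 1.17, SE 0.11, adjusted p = 1.98e-05), and by 0.41 with the trend removed (adjusted p = 0.00629). SELENOF, a protein of the endoplasmic reticulum, rose by 1.09 (SE 0.0933, adjusted p = 1.59e-05) but only by 0.02 with the trend removed (adjusted p = 0.89), and SELENON fell by 0.79 (SE 0.0954, adjusted p = 5.82e-05), and by 0.23 with the trend removed (adjusted p = 0.049). Of 7 tested genes of selenoprotein synthesis 2 rose and 1 fell, and none was called by edgeR once the trend was removed. Of 19 NRF2 targets 5 rose and 3 fell (median 0.09), against 4 and 5 with the trend removed (median 0.17) and 2 and 1 without NAC replicate 1. Among them was HMOX1, heme oxygenase, which fell by 0.53 (SE 0.15, adjusted p = 0.0133, and up to 0.0978 without NAC replicate 1 or KO replicate 2), and by 0.47 with the trend removed (adjusted p = 0.0327). AKR1C1, with a log2 fold change of 2.75 (2.76 with the trend removed) and a call that was lost without NAC replicate 1 (adjusted p = 0.106), stood at 11.8 CPM in NAC replicate 1 and at 1.84 CPM in NAC replicate 2, and so it split as TXNIP did, and 45.0% of its 31-base words occur at 2 or more sites.

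MLXIP (MondoA) stood at 84.3 and 79.5 CPM in WT, at 112 and 114 CPM in KO, at 70.8 and 88.1 CPM in 5% O2, and at 41.5 and 44.1 CPM with NAC. Its NAC libraries were the lowest and alike, unlike those of TXNIP and ARRDC4. In KO against WT its log2 fold change was 0.47 (SE 0.109, adjusted p = 0.0523), and 0.28 with the trend removed (adjusted p = 0.164), with no call in either fit. With NAC against KO it fell by 1.40 (SE 0.112, adjusted p = 1.43e-05), and by 0.59 with the trend removed (adjusted p = 0.00151). Its partner MLX rose by 0.53 (SE 0.103, adjusted p = 0.00132), and by 0.46 with the trend removed (adjusted p = 0.00605). These were the 2 of 6 tested arrestin and Mondo genes that were called.

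**Figure D5:**
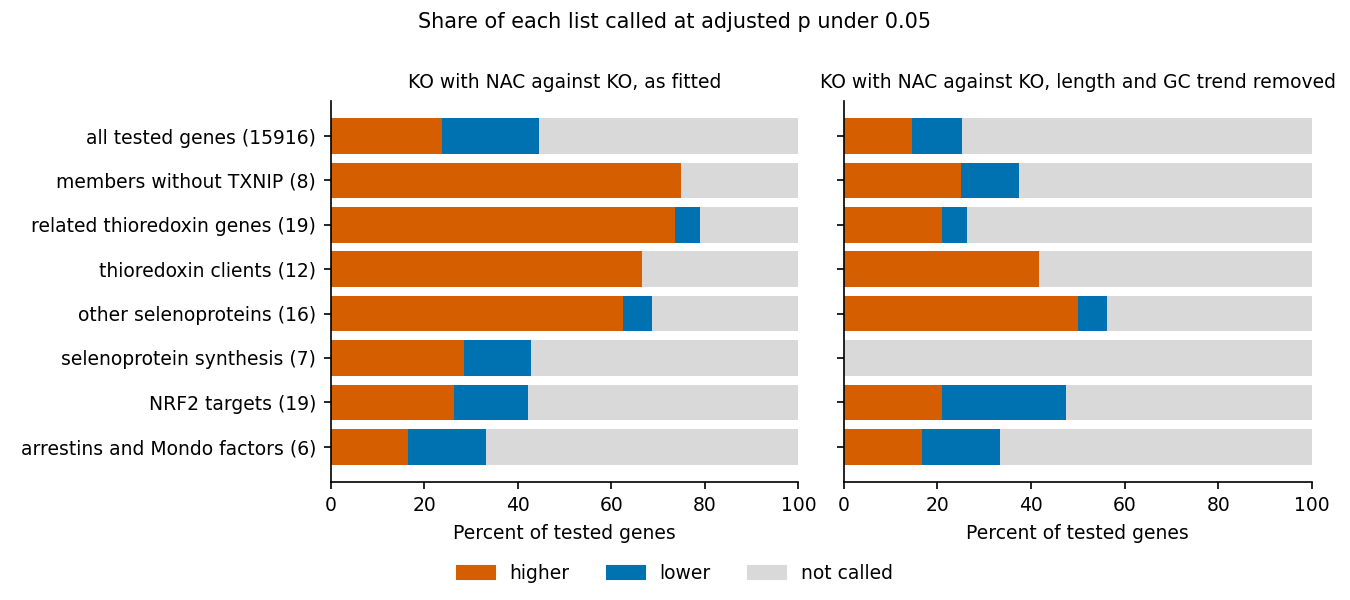
Percent of the tested genes of each list called higher, lower or not called in KO with NAC against KO, as fitted on the left and after removal of the length and GC trend on the right, with the number tested in parentheses. Of 19 related thioredoxin genes 14 are called higher on the left and 4 on the right, beside 23.8% and 14.6% of all tested genes.

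Among the marker lists, 3 of 12 pluripotency genes were called higher with NAC and 4 lower, with 1 of the 3, TDGF1, turning from 0.26 to -0.24 with the trend removed (adjusted p = 0.014 and 0.0168), and not called without either KO library (adjusted p of up to 0.0998). The others included 4 genes with log2 fold changes of 0.70 for DPPA4, 0.61 for ZFP42, -0.97 for DNMT3B and -0.68 for L1TD1. With the trend removed these were 0.23, 0.30, -0.60 and -1.04 and still called. Beside these marker lists, 23.8% of all tested genes were called higher and 20.8% lower, and 14.6% and 10.7% with the trend removed. Of 8 tested mesenchymal markers 3 were called higher and 1 lower, COL5A1 (-0.77, adjusted p = 0.00494, but 0.13 with the trend removed, adjusted p = 0.611). With the trend removed 4 were called higher, but without NAC replicate 1 none was called higher by edgeR and 3 were called lower. Of 4 tested neural markers 2 fell, NES (-1.78, and -1.10 with the trend removed) and TUBB3 (-0.31, not called with the trend removed or without KO replicate 2, adjusted p = 0.353 and 0.0698). Of 8 tested mesendoderm markers 1 rose, CXCR4 (1.20, likewise, adjusted p = 0.124 and 0.108), and 1 fell, MIXL1 (-1.59, and -1.61 with the trend removed), and of 3 tested trophoblast and amnion markers 1 fell, GATA2 (-2.13, and -1.68 with the trend removed).

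The 2 treatments were also set against each other directly, since both comparisons above share the untreated KO libraries. The length of the low O2 culture is given differently in the study's text and in its scheme, and may differ from that of NAC. The kind of treatment and its length cannot be told apart here. In KO with NAC against KO at 5% O2, 4 of 8 members were called higher, TXN (0.41), TXNRD1 (0.44), GLRX (0.72) and GLRX2 (0.78), where 15.5% of all genes were called higher and 13.6% lower. With the trend removed 1 of 8 was, TXNRD1 (0.32, SE 0.0802, adjusted p = 0.0221), where 7.58% of all genes were called higher, and TXN stood at -0.25 (adjusted p = 0.104), GLRX at 0.27 (adjusted p = 0.168) and GLRX2 at 0.40 (adjusted p = 0.213). Without the second 5% O2 library only TXN was called, with adjusted p-values of 0.0629 for TXNRD1, 0.0627 for GLRX and 0.169 for GLRX2. The call of GLRX2 was also lost without the first 5% O2 library (0.0555) or NAC replicate 1 (0.108). ARRDC4 had a log2 fold change of -0.03 (SE 0.27, adjusted p = 0.956). TXNIP had -0.13, with no test, and 0.59 or -1.74 with 1 NAC library left out. PRDX3 was higher with NAC than in 5% O2 (0.82, SE 0.0851, adjusted p = 0.000237, and 0.35 with the trend removed, adjusted p = 0.0104) and MLXIP was lower (-0.89, SE 0.111, adjusted p = 0.000448, and -0.46 with the trend removed, adjusted p = 0.00936).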

How the data were processed

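RNA-seq counts per gene were deposited by the authors for 8 libraries, as raw counts without normalization. Per the study's methods, reads were trimmed with trim-galore, aligned to hg38 with HISAT2 and counted with featureCounts at default settings, which ignore strand and leave out reads matching several sites or genes. The submitters' processing notes also name FastQC 0.11.9. The annotation used for counting is not given in the sources used here. Libraries were scaled with TMM in edgeR 4.0.16, genes were kept by filterByExpr with a minimum count of 10, and 1 quasi-likelihood fit with a term for each of the 4 groups (4 residual degrees of freedom, biological coefficient of variation 13.7%) gave all main tests, with Benjamini-Hochberg adjustment over 15916 genes. CPM use the TMM-scaled totals of the tested genes. Between the 2 libraries of a group the spread exceeded counting error (chi-square over its degrees of freedom, 9.79 to 32.4). Transcript lengths, GC content and positions came from GENCODE canonical transcripts, and 93.2% of tested genes had a length and GC content. The trend was a smooth function of both in each library (mgcv 1.9.3), removed through offsets, and DESeq2 1.42.0 was run as another tool. The steps were tested on simulated data. Promoter sequences are from RefSeq, where 8 of the 9 members matched by symbol (all but TXN2).

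The members, and the lists of related thioredoxin genes, thioredoxin clients, arrestin and Mondo genes, selenoprotein synthesis, other selenoproteins, NRF2 targets and markers of 5 cell types, were chosen with earlier results of these data known. Named genes were the members, UBQLN1, and the 5 genes most like TXNIP and 3 most like TXNRD1 (average log2 CPM of at least 1, prior count 2). Also named was the gene of highest CPM in each cell type list. From each list, up to 2 of the genes with the smallest p in each direction were added where any was called. DCN, LUM, PRRX1, COL3A1, LIN28A, TDGF1, SOX1, DCX and EMX2 were added after their values were seen. ARRDC5, SCLY and AKR1B10 did not pass the filter.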

Additional observations from a re-analysis of the deposited data

How the results depend on the processing

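The member values and the counts of called genes were recomputed with DESeq2, RLE or upper-quartile scaling, no filter, 10 counts in every library, only the libraries compared, the study's thresholds (absolute log2 fold change over 1 and unadjusted p under 0.05) applied to the edgeR fit, called the study's call below, the length and GC trend removed, the replicate number as a block, and each library left out, where a lone library is assumed to vary like the other groups. Of the member values, 545 kept their direction and side of the threshold, 30 lost a call, 9 gained one, 26 changed sign (6 of them with a call lost too) and 2 untested ones moved. In KO against WT 0 of 9 members were called under any of these settings, the unadjusted call included. In 5% O2 against KO, where 1 was called, 3 were called without a filter or with only the libraries compared, 2 by DESeq2, 1 by the study's call (TXNIP in place of TXN), 0 with the trend removed, and 0 to 3 with a library left out. With NAC against KO, where 6 were called, 3 were with the trend removed, 0 by the study's call and 3 to 6 with a library left out. With NAC against 5% O2, where 4 were called, 1 was with the trend removed, 0 by the study's call and 1 to 4 with a library left out. The cause of these changes was not tested. Differences between same-numbered replicates were close to uncorrelated between groups over the tested genes (correlations of -0.0226 to 0.0816). The labels do not say whether a number marks a shared clone or day, and these values cannot settle it. The replicate block alone gave 0, 1, 6 and 4 members called in KO against WT, 5% O2 against KO, NAC against KO and NAC against 5% O2, as without it, and with the replicate block and the trend removed 0, 0, 3 and 1. All genes called moved from 312, 1243, 7100 and 4635 to 366, 1417, 7173 and 4796 with the replicate block. They were 189, 313, 4032 and 2463 with the trend removed. They were 1252 and 2220 without a filter, 1124 and 3009 with only the libraries compared and 841 and 2097 by DESeq2 in the first 2 comparisons, 3050 with only the libraries compared in NAC against 5% O2, and 409, 321, 1435 and 703 by the study's call. With a library left out they ranged over 64 to 1311, 36 to 2763, 5031 to 7591 and 1354 to 5468. With the trend removed, and in parentheses with the replicate block too, these log2 fold changes changed sign: TXN at 0.20 (0.19) in KO against WT, -0.11 (-0.11) in 5% O2, -0.36 (-0.36) with NAC and -0.25 (-0.24) with NAC against 5% O2; GLRX at -0.08 (-0.08) with NAC; and, in 5% O2, TXNRD2 at 0.12 (0.13) and GLRX2 at -0.15 (-0.14). TXNRD2 in 5% O2 was also 0.01 with upper-quartile scaling. With a library left out, KO against WT ranged from -0.21 to 0.01 for TXNRD1, -0.15 to 0.38 for TXNRD2, -0.03 to 0.36 for TXNIP and -0.27 to 0.06 for ARRDC4, 5% O2 from -0.24 to 0.28 for TXNRD2 and -0.19 to 0.11 for GLRX, NAC from -0.06 to 0.47 for TXNRD2, and NAC against 5% O2 from -0.53 to 0.34 for ARRDC4. TXNRD2, TXNIP and ARRDC4 had at most 75, 458 and 323 counts in a library.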
